A study of Mus musculus with 4 samples.

Results

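The AP-1 transcription factors and their stress-response relatives were compared between sorted cells of molar and incisor pulp of the mouse. The 10 genes are Fos, Fosb, Fosl1, Fosl2, Jun, Junb, Jund, Atf3, Maff and Batf. They were taken by name, as the rows of the authors' deposited table whose gene symbol equals one of these, and each symbol had exactly 1 row among 23712 single-gene symbols. The molar group consists of FDG-positive cells of molar pulp from XLacZ4 mice, 2 libraries, and the incisor group of FDG-positive cells of incisor pulp from the same strain, 2 libraries. Both groups carry the XLacZ4 reporter, through which beta-galactosidase is made in vascular mural cells, and FDG is a substrate that fluoresces once beta-galactosidase has cut it. The labels give neither age nor sex, nor the number of animals behind a library, and no treatment is named. The extraction text of the incisor libraries mentions molars too, and tissue follows the title and source labels. The mammalian lysosomal enzyme can also cut FDG, so a positive cell need not carry an active reporter.

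All levels below are FPKM, a fragment count scaled by transcript length and by sequencing depth, and the authors' deposited table gives 1 combined value per tissue. No replicate error can be given for any of them, and library depth is unknown. A gene is named called where the authors' q value, a p-value adjusted for the number of genes tested, lies under 0.05, and the smallest q in the table, 0.000664, was shared by 1414 rows and does not rank them. With 1 value per tissue, a difference between the teeth and one in dissociation, sorting or sequencing cannot be told apart, and neither can more cells of a type and more RNA per cell. FPKM totals were 815089 in molar and 539574 in incisor, a log2 ratio of 0.60. Genes with a value above 0 in each tissue had a median log2 fold of 0.22. Folds of single genes are given on the deposited scale, and as a share of each tissue's total FPKM where that changes a statement. Medians of length, GC and exon groups and of gene lists, and folds centred on them, are log2 folds with 1 FPKM added to each value.

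AP-1 is a pair of bZIP proteins, which grip DNA with a basic region and each other with a leucine zipper. Fos proteins need a Jun partner to bind DNA stably, while Jun proteins can also pair with each other, and the classical AP-1 site reads TGACTCA. Fos, Fosb, Jun, Junb and Atf3 are immediate-early genes, transcribed within minutes of growth factors, cytokines, mechanical strain or enzymatic tissue dissociation, with no need for new protein. In the mouse skeleton Fos is required for osteoclast formation, and Fosl1 and Fosl2 act in osteoblasts and osteoclasts.

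By the q values of the authors' deposited table, 6 of the 10 factors were called higher in molar pulp and 0 were called lower. Over all 18770 tested rows, 11.9% were called higher in molar pulp and 4.28% lower. Among rows that reached 1 FPKM in either tissue, as all 10 factors did, these shares were 16.1% and 5.66%. The counts of 6 and 0 factors were the same at q under 0.01 (8.8% and 2.27% of all rows), with a difference of at least 4-fold (8.93% and 2.57%) and among rows at 5 FPKM or more (21.7% and 9.02%). The last setting could not lower the count of 6, since the lowest molar value of a called factor was 20.6. The count at 4-fold depends on the scaling. After median centring of the folds it was 4 factors and 0 (7.91% and 3.15% of all rows), with Fosb and Maff under 4-fold, and with equal FPKM totals it was 3 and 0 (6.59% and 4.08%), with Fos at 3.44-fold, Maff at 3.09-fold and Fosb at 2.75-fold. The 6 were Fos, Fosb, Jun, Junb, Atf3 and Maff, and the 4 that were not called were Fosl1, Fosl2, Jund and Batf. No factor was higher in incisor at an unadjusted p under 0.05 either (0 of 10). On the scale log2((molar FPKM + 1) / (incisor FPKM + 1)), which understates the difference of low genes, the median of the 10 was 1.95, beside 0.14 over the 13080 tested genes at 1 FPKM or more.

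**Figure D1:**
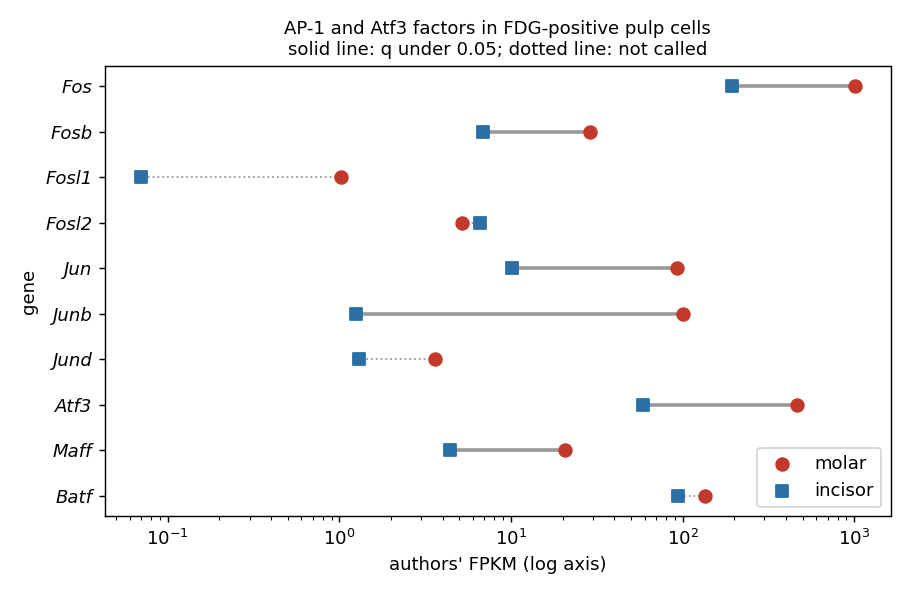
Authors' FPKM of each factor in molar (circles) and incisor (squares) on a log axis, with a solid line where q lies under 0.05 and a dotted line where it does not. Fos at 1008 and Atf3 at 465 have the highest molar values, and Junb spans the widest distance of the called genes, 100.4 in molar against 1.26 in incisor.

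Fos, the partner that gives AP-1 much of its stability on DNA, was the most abundant of the 10 in both tissues. It stood at 1008 FPKM in molar and 194 in incisor, 5.19-fold higher in molar with q = 0.000664 in the authors' deposited table. That put it at rank 144 of 23712 symbols in molar and at rank 430 in incisor. The Fos row spans 85473901 to 85477270 of chromosome 12 on mm10. Fosb, whose truncated splice form is the long-lived deltaFosB of neurons, followed at a much lower level, with 28.8 in molar and 6.92 in incisor. Its difference was 4.16-fold with q = 0.000664 in the authors' deposited table. Fos exceeded Fosb 35.0-fold in molar and 28.1-fold in incisor, so Fos led this pair in both teeth.

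The late Fos relatives were not called. Fosl2, which codes for Fra-2, was the single factor with a lower value in molar on the deposited scale, at 5.18 against 6.63 in incisor, a log2 fold of -0.36 with q = 0.418 in the authors' deposited table. Fosl1, which codes for Fra-1, stood at 1.02 in molar and 0.0695 in incisor. The ratio of 14.7 is larger than that of Fos, yet q was 0.482 in the authors' deposited table. Fosl1 was the lowest of the 10 in both tissues, and 60.3% of the 32-base words of its transcript also occur in Ccdc85b, a gene on the other strand whose row covers the same interval. Whether the counting used strand is not given, so reads of these genes may not have been separated, and the Fosl1 values are uncertain. Ccdc85b itself stood at 1.06 in molar pulp and 0.223 in incisor pulp and stayed uncalled, with q = 0.252 by the authors' deposited table.

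Junb, a Jun protein that often restrains Jun and acts in cytokine and osteoblast responses, had the largest difference of the 10. It stood at 100.4 FPKM in molar and 1.26 in incisor, 79.9-fold higher in molar with q = 0.000664 in the authors' deposited table. Only 173 of 15741 tested genes above 0 in both tissues had a larger log2 fold in that table. Its rank among all symbols was 1221 in molar and 10686 in incisor. The row spans 84976909 to 84978748 of chromosome 8. None of the 32-base words of its transcript occurs in another gene of the GENCODE M21 annotation.

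Jun, the founding member that can bind DNA as a pair with itself, stood at 92.9 in molar and 10.2 in incisor. The difference was 9.10-fold with q = 0.000664 in the authors' deposited table, on chromosome 4 from 95049036 to 95052222. In molar Jun and Junb lay close to each other, at a ratio of 1.08, whereas in incisor Junb was at 0.123 of the Jun level. The antisense gene Junos shares 6.36% of the words of Jun.

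Jund, the Jun member that most cells keep at a steady level and that menin holds in check, was low in both tissues, with 3.62 in molar and 1.29 in incisor. It was not called, with q = 0.214 and an unadjusted p of 0.0631 in the authors' deposited table. The antisense gene Gm11175 covers 50.0% of its 32-base words. The row of Jund also begins 1210 bases before the start in GENCODE M21, spanning 2878 bases where GENCODE gives 1668, and a longer model lowers an FPKM value. Its level relative to Jun and Junb is therefore uncertain.

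**Figure D2:**
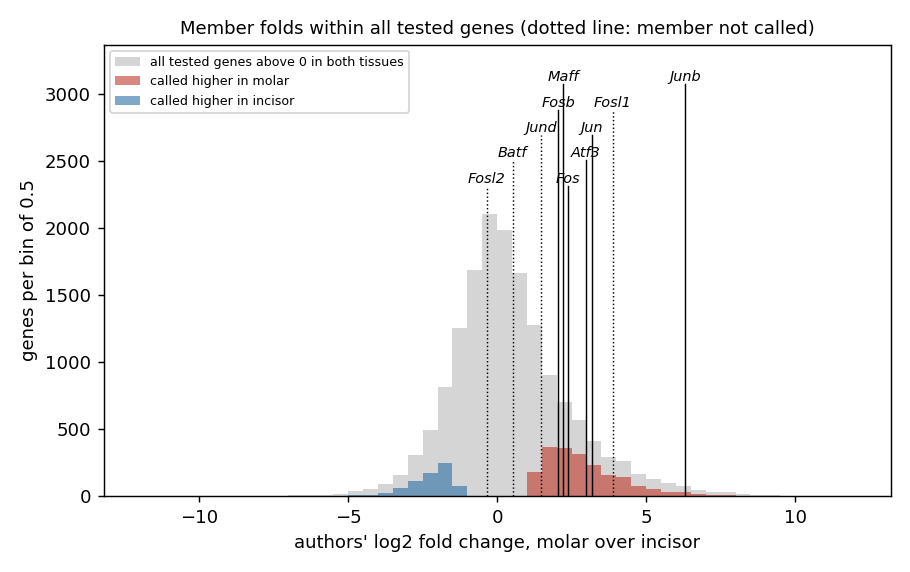
Number of tested genes above 0 in both tissues (grey) per bin of the authors' log2 fold change, with called genes in red (higher in molar) and blue (higher in incisor) and a vertical line for each factor. The 6 called factors lie between 2.06 (Fosb) and 6.32 (Junb), and the 4 uncalled ones, drawn dotted, between -0.36 (Fosl2) and 3.87 (Fosl1).

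Atf3, a stress-induced bZIP factor that pairs with Jun proteins and damps inflammatory genes in macrophages, stood at 465 FPKM in molar and 59.0 in incisor. It was 7.88-fold higher in molar with q = 0.000664 in the authors' deposited table, a fold exceeded among the called factors by Junb and Jun. The row lies on chromosome 1 from 191170297 to 191183333. Fos exceeded it 2.17-fold in molar and 3.29-fold in incisor. Maff, a small Maf protein without a transactivation domain that pairs with Cap'n'collar factors such as Nfe2l2, stood at 20.6 in molar and 4.42 in incisor. Its difference was 4.67-fold with q = 0.00278, the largest q among the called factors in the authors' deposited table.

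Batf, an AP-1 factor of lymphocytes and myeloid cells that works with Irf4 and Irf8, was abundant in both teeth. It stood at 135 FPKM in molar pulp and 93.8 in incisor pulp and was not called, with a fold of 1.44 and q = 0.264 in the authors' deposited table. In molar pulp it ranked behind Fos and Atf3, and in incisor pulp only Fos, of the 10, was more abundant. As a share of each tissue's total FPKM its direction turned, with 0.0165% in molar and 0.0174% in incisor. Its partner Irf8 was called higher in molar, at 31.9 against 5.52 in incisor pulp, with q = 0.000664 by the authors' deposited table. Irf8 is also a macrophage gene. Irf4 was not called, at 1.86 in molar and 0.848 in incisor, with q = 0.252 by the authors' deposited table.

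The order of levels can be read from single values only. In molar it ran Fos, Atf3, Batf, Junb, Jun, Fosb, Maff, Fosl2, Jund and Fosl1, and in incisor Fos, Batf, Atf3, Jun, Fosb, Fosl2, Maff, Jund, Junb and Fosl1. Without replicate values it cannot be said which neighbours in these orders differ, and Junb and Jun in molar (100.4 and 92.9), Fosb and Fosl2 in incisor (6.92 and 6.63) and Jund and Junb in incisor (1.29 and 1.26) lie closest. Junb lay directly behind Batf in molar, and only Fosl1 lay below it in incisor.

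The makeup of the families differed between the teeth. The summed FPKM of Jun, Junb and Jund was 197 in molar and 12.8 in incisor, a 15.4-fold difference. Of that sum Junb made up 51.0% in molar and 9.85% in incisor, Jun 47.2% and 80.0%, and Jund 1.84% and 10.1%. The summed FPKM of the 4 Fos genes was 1043 in molar and 208 in incisor, a 5.02-fold difference. Fos alone made up 96.6% of it in molar and 93.5% in incisor. Fosl2 contributed 0.497% in molar and 3.19% in incisor. The Fos sum exceeded the Jun sum 5.30-fold in molar and 16.3-fold in incisor. These ratios within a tissue do not depend on the scaling between tissues, but they carry no error and were not tested, and the doubt about the Jund and Fosl1 levels applies to them. Nor were they corrected for the trend with transcript length and GC content described below. Genes of the length of Junb had a median log2 fold of 0.77 there, and those of the length of Jun -0.17.

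**Figure D3:**
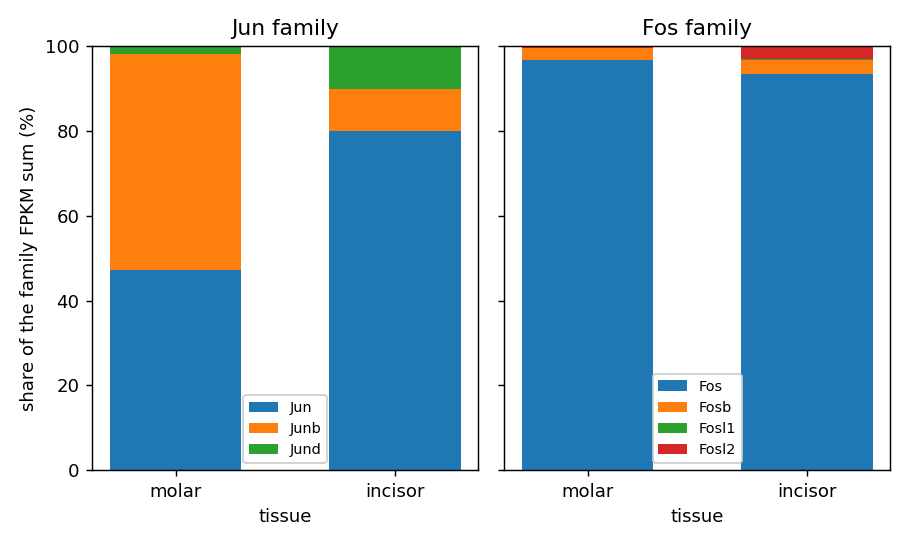
Share of each gene in the summed FPKM of the Jun family (left) and the Fos family (right), with molar before incisor in each panel. Junb takes 51.0% of the Jun sum in molar and 9.85% in incisor, while Fos takes over 90% of the Fos sum in both teeth (96.6% in molar and 93.5% in incisor).

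The DNA before the start sites of the 6 called factors is shown. Each line gives the 150 bases before an annotated start, 5′ to 3′ on the gene's strand, from RefSeq on GRCm38.p6, and capitals mark TGACG or its complement CGTCA (the core word of CREB and ATF sites), TGACATCA (the variant AP-1 site of the Jun promoter), TGACGTCA (the full cAMP response element, which contains TGACG on both strands) and TATAAA. Maff has 3 annotated starts, and the one shown was chosen because it holds the full element.
Fos, + strand, chr12:85473740-85473889: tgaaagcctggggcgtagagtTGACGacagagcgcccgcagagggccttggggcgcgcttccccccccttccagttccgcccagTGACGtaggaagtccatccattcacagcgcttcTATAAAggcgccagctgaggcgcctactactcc
Fosb, - strand, chr7:19310046-19310195: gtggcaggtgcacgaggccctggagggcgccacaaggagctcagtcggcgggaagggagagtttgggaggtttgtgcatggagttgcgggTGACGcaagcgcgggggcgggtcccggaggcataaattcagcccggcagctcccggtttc
Jun, - strand, chr4:95052223-95052372: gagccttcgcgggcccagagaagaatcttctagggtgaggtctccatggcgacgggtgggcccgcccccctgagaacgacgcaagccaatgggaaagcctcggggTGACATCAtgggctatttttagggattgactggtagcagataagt
Junb, - strand, chr8:84978749-84978898: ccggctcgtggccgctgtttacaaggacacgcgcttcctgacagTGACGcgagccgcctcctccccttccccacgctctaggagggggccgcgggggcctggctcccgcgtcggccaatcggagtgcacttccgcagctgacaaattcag
Atf3, - strand, chr1:191183334-191183483: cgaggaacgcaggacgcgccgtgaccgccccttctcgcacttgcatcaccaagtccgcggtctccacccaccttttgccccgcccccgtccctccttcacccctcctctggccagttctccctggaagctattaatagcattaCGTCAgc
Maff, + strand, chr15:79347370-79347519: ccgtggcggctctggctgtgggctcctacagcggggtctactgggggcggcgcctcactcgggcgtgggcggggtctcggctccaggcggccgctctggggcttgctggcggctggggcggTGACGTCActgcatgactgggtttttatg

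The core word TGACG lay within 250 bases before the start in 7 of the 11 windows of the factors, beside 17.8% of 32851 windows of the same length over all genes. Maff entered this count with more than 1 window, and the windows over all genes were not matched for GC content. RefSeq windows were matched for 9 of the 10 factors, all but Fosl1. The core word was found for Fos, at 129 and 66 bases before the start, and for Fosb at 60, Junb at 106 and Atf3 at 7. Maff and the uncalled Batf had it too, Batf at 98 bases. Jun had the variant TGACATCA at 45 bases, a word found in 2.93% of all windows, and 1 of the other Maff windows held it as well. The full element TGACGTCA was found in 1 of the 11 windows, that of Maff, beside 1.55% of all windows. TATAAA was found in 1, that of Fos, beside 12.4%. The AP-1 site TGACTCA and the CArG box bound by serum response factor were found in 0 of the 11 windows, beside 4.46% and 1.47% of all windows. The well-known serum response element of Fos lies further from the start than these windows reach. The Fosl2 and Jund windows held none of these words, but all of the last 150 bases of the Fosl2 window lie within GENCODE exons, and the Jund window lies before the early start described above. All searches covered both strands. Such matches describe letters and not bound sites.

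The log2 fold with 1 FPKM added to each value moved with transcript length and GC content over all genes, which touches several factors. Among 13080 genes at 1 FPKM or more, 97.1% had a GENCODE M21 transcript. In the shortest decile, from 80 to 1118 bases, the median log2 fold was 1.06 and 27.1% of genes were called higher in molar. In the longest decile, from 6203 bases, the median was -0.28 and the share 5.28%. The decile of highest GC content, from 57.9%, had a median of 0.78 with 24.6% called higher in molar, and the decile of lowest GC content a median of 0.07 with 14.1%. Fosl1, Junb, Jund, Atf3 and Maff, of 1668 to 1984 bases, belong to length decile 3, with a median of 0.77 and 29.0% called higher in molar.

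Measured from the median of their own length decile, the called factors had log2 folds of 4.72 for Junb, 3.24 for Jun, 2.18 for Atf3, 2.10 for Fosb, 2.05 for Fos and 1.22 for Maff. Jun (3189 bases) and Fosb (3782 bases) belong to deciles whose medians were below 0, at -0.17 and -0.19. Measured from the median of their GC decile, the same genes had 4.71 for Junb, 2.91 for Jun, 2.88 for Atf3, 1.58 for Fosb, 2.31 for Fos and 1.67 for Maff. Jund and Fosl1 came to 0.24 and 0.15 by length, and to 0.24 and 0.14 by GC content. Jund was placed by its GENCODE length, while the 2878 bases of its row would fall in a decile with a median of -0.17. For Fosl1 the added 1 FPKM shrinks a deposited log2 fold of 3.87. These values therefore do not show that the 2 genes are typical of their deciles. Batf, with 955 bases in the shortest decile, came to -0.55 by length. These centred folds have no test of their own. Called folds of 1.91 or more could not fall below 0, since no decile median exceeded 1.06.

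**Figure D4:**
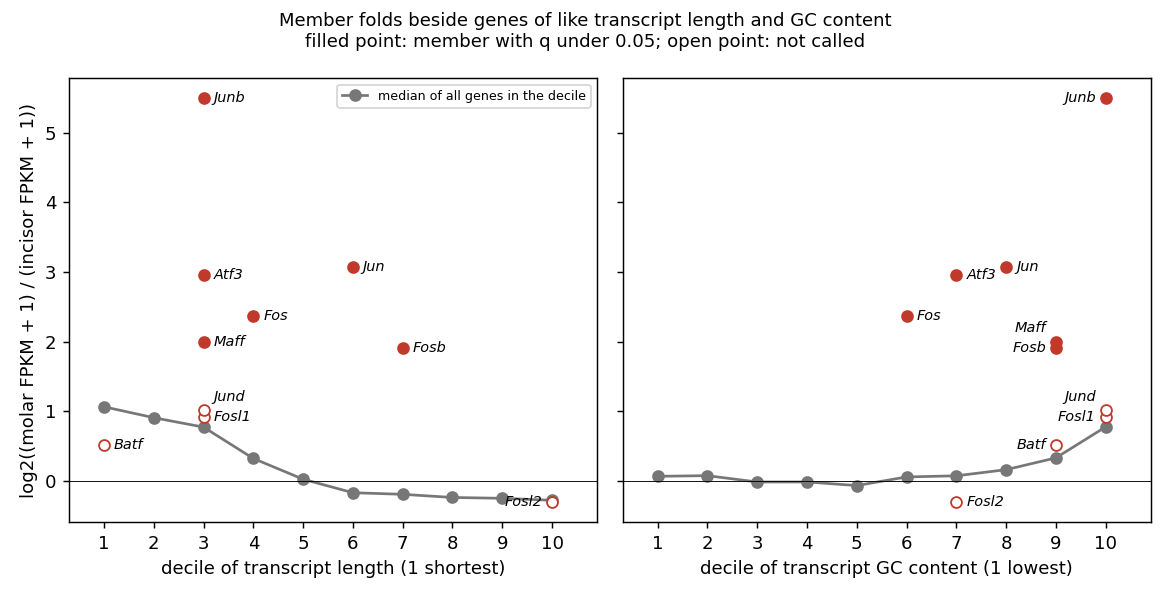
Log2((molar FPKM + 1) / (incisor FPKM + 1)) of each factor (red, filled where q lies under 0.05) against the decile of transcript length (left) and of GC content (right) that its transcript belongs to, with the median of all genes in each decile in grey. The 6 called factors lie above the median of their decile in both panels, while Jund and Fosl1 lie within 0.24 of it on this scale. Jund is placed by its GENCODE length, and the added 1 FPKM shrinks the fold of the low Fosl1.

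Jun, Junb and Jund have a single exon, so their fragments could not be told from those of genomic DNA by splicing. Single-exon genes had a median log2 fold of 0.85 over 484 genes, with 15.3% called higher in molar, beside 0.12 and 16.2% for 12217 genes with more exons. As a measure of signal where little is expected, 1469 olfactory, vomeronasal and taste receptor genes, a list chosen with values known, had a 99th percentile of 3.81 FPKM in molar and 0.137 in incisor. Junb and Jun lay well above this in both tissues. Jund at 3.62 and Fosl1 at 1.02 in molar lay under it, and so did Fosl1 at 0.0695 in incisor.

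Of the 20 nearest rows on either side, the authors' deposited table called 5 higher in molar pulp and 0 lower, beside 11.9% and 4.28% of all rows, with Jdp2, which lies between Fos and Batf, counted beside each. All of them reached 1 FPKM in either tissue, and among such rows the shares were 16.1% and 5.66%. Prdx2, a peroxiredoxin that ends 2098 bases from Junb, stood at 935 in molar and 651 in incisor without a call, at q = 0.329 by the authors' deposited table. On its other side Hook2 stood at 1.53 in molar and 0.957 in incisor. Both neighbours of Jun were uncalled, with Mysm1 at 5.86 in molar pulp and 7.36 in incisor pulp and Fggy at 19.2 in molar and 15.3 in incisor. Fos, the repressor Jdp2 and Batf follow each other on chromosome 12, and Jdp2 stood at 1.07 in molar and 0.363 in incisor (q = 0.252, not called in the authors' deposited table). On the other side of Fos, Tmed10 was called higher in molar, with 166.9 in molar and 47.0 in incisor and q = 0.00124 in the authors' deposited table. Among the neighbours of the uncalled factors, AI837181 beside Fosl1 (31.3 in molar and 4.64 in incisor) and Bre beside Fosl2 (158 in molar and 37.6 in incisor) were called too. Lsm4, next to Jund, was called, with 32.7 in molar and 1.42 in incisor, as was Tmem184b, 1607 bases from Maff, with 5.32 in molar and 1.15 in incisor.

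Other bZIP factors, which can pair with these proteins or compete for their sites, were mostly not called. The authors' deposited table called 4 of 33 tested genes higher in molar pulp and 1 lower (12.1% and 3.03%), close to the 11.9% and 4.28% of all rows. Of the 33, 32 reached 1 FPKM in either tissue, and among such rows the shares were 16.1% and 5.66%. Their median was 0.45, beside 0.14 over all genes. Atf4, the effector of the integrated stress response, was 6.68-fold higher in molar (282 against 42.3), and the repressors Bach1 (5.96 against 1.82) and Bach2 (1.90 against 0.305) and the clock-related Hlf (2.32 against 0.398) were higher there too. The molar values of Bach2 and Hlf lie within the range of the receptor genes above and are uncertain. Atf2, a partner of Jun that stress kinases activate, was higher in incisor, with 3.37 FPKM in molar against 12.6 FPKM in incisor pulp and q = 0.0310 by the authors' deposited table. Ddit3 (314 in molar and 231 in incisor) and Nfe2l2 (190 and 136) were abundant and not called.

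Among the MAP kinases that activate AP-1, the authors' deposited table called 6 of 33 higher in molar pulp and 1 lower (18.2% and 3.03%, beside 11.9% and 4.28% of all rows), and the median was 0.00. Of the 33, 31 reached 1 FPKM in either tissue, and among such rows the shares were 16.1% and 5.66%. Mapk3, which codes for ERK1, stood at 118 in molar and 42.0 in incisor, a 2.82-fold difference. The p38 activator Map2k3 (64.9 in molar against 15.5 in incisor), the p38 kinase Mapk13 (45.1 against 11.8) and the p38 substrate Mapkapk2 (19.9 against 6.02) were called higher in molar too. Other genes of the p38 branch were not called, among them Mapk14 (6.80 in molar and 12.8 in incisor), Map2k6 (8.42 and 8.40), Mapkapk3 (3.22 and 5.22) and Mapk12 (1.74 and 0.671). Braf stood at 1.58 in molar pulp and 9.75 in incisor pulp and was called higher in incisor. Araf (30.5 in molar and 66.1 in incisor) and Map2k1 (16.7 and 10.2) were not called.

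Activators that switch on Fos and partners of AP-1 had 1 or 0 calls in each direction, which at these list sizes is near the 11.9% and 4.28% of all rows. Among rows at 1 FPKM or more in either tissue, as all tested genes of these lists were, the shares were 16.1% and 5.66%. Of 14 tested serum response factor, ternary complex factor and CREB-type activators, the authors' deposited table called 1 higher in molar pulp, the CREB coactivator Crtc1 (2.57 against 0.193 in incisor), and 0 lower (7.14% and 0%), with a median of -0.01. The molar value of Crtc1 lies within the range of the receptor genes. Ets2 (20.7 in molar and 13.7 in incisor) and Stat3 (12.0 in molar, 10.4 in incisor) were not called. Of 21 regulators and partners, Irf8 was called higher in molar and the coactivator Ncoa1 (2.17 in molar against 6.39 in incisor) higher in incisor (4.76% each). Cops5, a coactivator of Jun, stood at 118 in molar pulp and 69.5 in incisor pulp and was not called.

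Genes known as AP-1 targets were called in both directions, with more of them higher in molar. The authors' deposited table called 12 of 37 tested genes higher in molar pulp and 2 lower. These shares were 32.4% and 5.41%, beside 11.9% and 4.28% of all rows, and the median was 0.59. All 12 and 2 called targets reached 5 FPKM in either tissue, and among such rows the shares were 21.7% and 9.02%. The list was not matched for transcript length or GC content. The chemokines Ccl2, Cxcl1 and Cxcl2 and the intermediate filament gene Vim led the targets higher in molar, with Vim at 1190 in molar and 142 in incisor. Mmp13, a collagenase of bone and wounds whose promoter carries a classical AP-1 site, went the other way. It stood at 4.37 in molar and 375 in incisor, 85.9-fold higher in incisor pulp, and q was 0.000664 by the authors' deposited table. The bone matrix gene Ibsp was also higher in incisor (3.71 in molar against 43.0 in incisor). Hmox1 (945 in molar and 487 in incisor) and Mt1 (209 and 290) were not called. Many of these targets answer to NF-kB as well.

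Immediate-early and early-response genes outside the AP-1 family had 19 of 37 genes called higher in molar pulp and 1 lower by the authors' deposited table. These shares were 51.4% and 2.70%, beside 11.9% and 4.28% of all rows, and their median was 1.11. Of the called genes, 18 and 1 reached 5 FPKM in either tissue, and among such rows the shares were 21.7% and 9.02%. This list was not matched for transcript length or GC content either. Ier3, Nfkbia, Zfp36 (1243 in molar against 148 in incisor) and Gadd45b (719 against 3.39) had the highest means among those called. Some classical early genes were not called. Egr1, which like Fos is driven through serum response factor, stood at 116 in molar pulp and 84.8 in incisor pulp and carried no call, at q = 0.314 by the authors' deposited table, and the matricellular gene Cyr61 (174 and 80.1) was not called either. Klf10, an early target of TGF-beta, was higher in incisor, at 8.65 in molar against 46.3 in incisor. Of 12 heat shock genes, Dnajb1 (193 in molar against 33.5 in incisor) and Dnaja1 (167 against 39.9) were called higher in molar and Hsph1 (16.3 in molar against 46.1 in incisor) lower by the authors' deposited table. The heat shock shares were 16.7% higher and 8.33% lower in molar, beside the same 11.9% and 4.28%, and their median was 0.68. All 12 heat shock genes reached 5 FPKM in either tissue, and among such rows the shares were 21.7% and 9.02%.

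**Figure D5:**
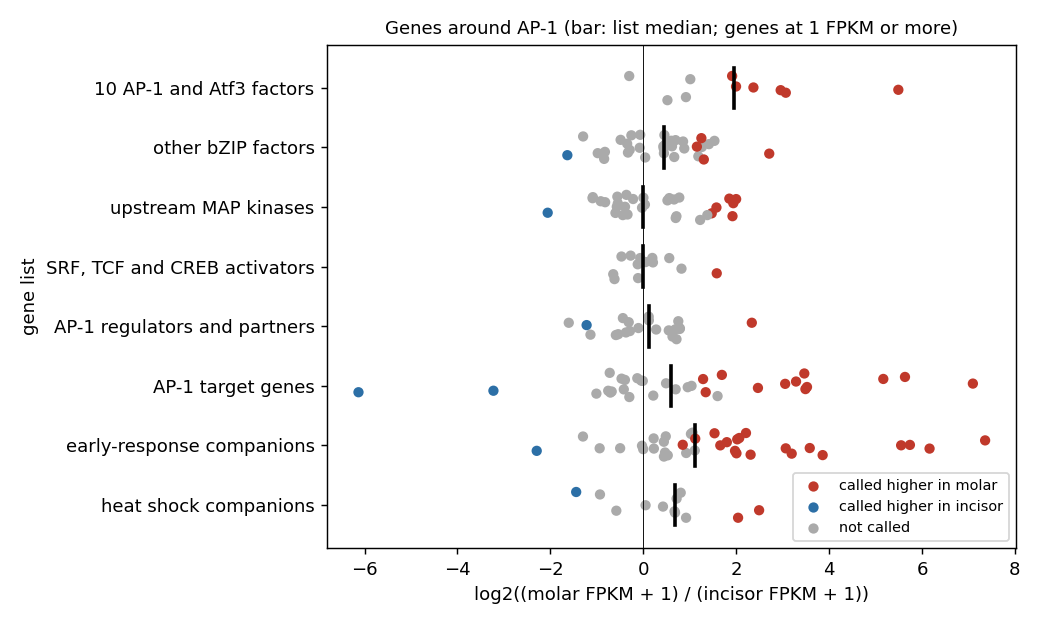
Log2((molar FPKM + 1) / (incisor FPKM + 1)) of genes at 1 FPKM or more in each list, 1 point per gene, red where called higher in molar, blue where called higher in incisor and grey where not called, with a bar at the list median. The medians are 1.95 for the 10 factors, 1.11 for the early-response companions and 0.00 for the MAP kinases.

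Cell type markers differed in level between the sorted fractions. Beside the counts below, 11.9% of all tested rows were called higher in molar pulp and 4.28% lower. Among rows at 1 FPKM or more in either tissue these shares were 16.1% and 5.66%. The authors' deposited table called 9 of 10 endothelial markers higher in molar pulp and 0 lower, with summed FPKM of 300.4 in molar pulp and 21.6 in incisor pulp and Cldn5 listed at 0 in incisor. Of 10 macrophage markers, 4 were called higher in molar pulp and 0 lower, with sums of 8888 in molar and 5400 in incisor. Of 10 dental epithelial markers, 0 were called higher in molar pulp and 8 lower, with sums of 2635 in molar and 23505 in incisor. Of these sums, Amelx alone held 1937 in molar and 20642 in incisor. Of 10 mural markers, 1 was called higher in molar pulp and 3 lower, with sums of 325 in molar pulp and 835 in incisor pulp and none at 0. Rgs5 alone held 127 of the molar sum and 537 of the incisor sum. In the remaining lists the numbers called higher and lower in molar pulp were 1 and 2 of 8 odontoblast markers (sums of 354 in molar and 548 in incisor), 1 and 1 of 8 lymphoid markers (16.5 and 13.1, with Nkg7 at 0 in molar and Cd3e at 0 in incisor), and 4 and 1 of 6 erythroid markers (203 and 6.12, with Car1 at 0 in molar). Fos, Jun, Junb and Atf3 are inducible in most nucleated cell types. The part of cell composition in the differences of the 10 factors was not tested.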

How the data were processed

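RNA of FDG-positive cells was sequenced from 2 molar and 2 incisor libraries. Per the submitters' processing notes, the mm10 build was used with HISAT2, Trim Galore and edgeR. Which tool wrote the table, with which scaling and annotation, is not given in the sources used here. Per the file headers, the authors deposited for each gene 1 FPKM value per tissue, the log2 fold change, a signed test score and a p-value with its q-value. The deposited log2 fold equals log2 of molar over incisor FPKM. Tissues were assigned through the description labels. Start positions were moved by 1 base to be 1-based.

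A count model had been planned for per-library counts. With 1 value per tissue it could not be fitted, so the authors' q values were used as deposited, and no test was run here. Nothing in the labels says that the libraries came from separate animals, and how the deposited q values took up their spread is not given. For each repeated symbol the row of the highest mean FPKM was kept (273 rows set aside, 231 joined rows left out of lists), and 4 list symbols were matched under an older symbol through RefSeq. Mrtfa was not matched. The 10 members and all lists were chosen with earlier results of these data known. From each list the text names up to 4 called genes in each direction and up to 2 uncalled genes of the highest mean FPKM. Rows beside or overlapping members are named as well. Beyond that rule it names Irf4, the p38 genes Mapk14, Map2k6, Mapkapk3 and Mapk12, and some cell type markers. Transcript length, GC content and exon number are those of the longest GENCODE M21 transcript, with preference for one tied to a RefSeq mRNA. Calls and motif search were tested on simulated data. Python 3.11.15 with pandas 2.3.3 was used. Alternatives covered the q threshold, a fold minimum, an FPKM minimum, the pseudocount and the scaling between tissues.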

Additional observations from a re-analysis of the deposited data

How the results depend on the processing

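The count of 6 factors called higher in molar pulp and 0 lower was the same at q under 0.01. It was also the same with a 4-fold minimum on the deposited scale and by the authors' own mark of significance. That mark went up to a q of 0.0600 and the largest q of a called factor was 0.00278, so it was no stricter check. A minimum of 5 FPKM in either tissue left out no called factor. Median centring by 0.22 could not turn the direction of called log2 folds of 2.06 or more. Neither of these settings could change the count. With the 4-fold minimum it was 4 after median centring and 3 with equal FPKM totals, both added after seeing the data. The deposited log2 folds of the 10 factors had a median of 2.30. With a pseudocount of 1 FPKM the median of the 10 was 1.95, and with equal FPKM totals on that scale it was 1.36. It lay between 1.47 (pseudocount of 5 FPKM) and 2.29 (pseudocount of 0.1 FPKM) under the other alternatives, which include centring on length or GC content and leaving out Fosl1 and Jund, both added after seeing the data. Of 60 single folds under the alternatives, 23 moved by more than a factor of 1.5 and 0 of the called ones changed sign. No called fold could change sign, since the smallest was 1.91 and at most 0.78 was subtracted. A pseudocount cannot turn a direction. Junb ranged from 4.07 to 6.21 and Maff from 1.22 to 2.20 on the log2 scale, and the uncalled Batf from -0.55 to 0.52. At 5 FPKM or more, the bZIP factors called higher in molar numbered 2 in place of 4 and the activators 0 in place of 1. At q under 0.01, the bZIP factors, the partners and the heat shock genes called higher in incisor each numbered 0 in place of 1. No paired analysis was possible because the table holds 1 value per tissue, and for the same reason no library could be left out. The missing replicate values and unknown depth limit every statement.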
